A study of Mus musculus with 8 samples.

Results

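The products of 4 genes make acetylcholine, package it, break it down and take its choline up again. A further 5 genes encode the receptors through which acetylcholine acts on G proteins. These 9 genes, Chat, Slc5a7, Slc18a3, Ache and Chrm1 to Chrm5, were taken by symbol from the 33885 gene symbols measured in nucleus accumbens (NAc) and medial prefrontal cortex (mPFC) of the mouse. Of the 9, 8 had counts and 1, Slc18a3, was at 0 in every library.

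In the NAc, acetylcholine comes mainly from sparse, large cholinergic interneurons, which release it onto the projection neurons of the striatum. In the cortex it is released mainly by axons of neurons in the basal forebrain, whose cell bodies lie elsewhere, while a small class of cortical interneurons also carries Chat. The M1, M3 and M5 receptors act through Gq and phospholipase C, and the M2 and M4 receptors act through Gi and Go, which lower cyclic AMP and open potassium channels.

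Total RNA was sequenced from adult male C57Bl6J mice in 8 bulk tissue libraries, 2 for each of 4 groups. In the NAc these were mice conditioned with cocaine at 7.5 mg/kg, given into the peritoneum in a place-preference procedure, and mice left in the home cage. In the mPFC they were mice defeated by aggressive CD1 males and, again, mice left in the home cage; tissue of the exposed mice was taken 15 min after the experience. The home cage was the control in each region, so cocaine cannot be told apart from injection, handling and the conditioning chamber, nor defeat from the encounter as such. The labels do not say whether the 2 libraries of a group came from separate animals, so p-values measure the spread between these samples, which may be technical. In bulk tissue, fewer cells of a type and less RNA per cell cannot be told apart.

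Library totals ran from 111901829 to 179479978 counts. The tissue labels were checked on marker lists: summed levels of 15 striatal projection neuron genes were 2692 to 8077 CPM (counts scaled to a common library size) in NAc and 881 to 1012 in mPFC, and those of 12 cortical glutamatergic genes 1169 to 1956 in NAc and 2685 to 2911 in mPFC. All CPM values here carry TMM scaling factors computed over the 8 libraries. The NAc libraries numbered 2 stood apart from those numbered 1 in both NAc groups, with less of the striatal and more of the cortical markers, as detailed with the values that this touches.

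Chat, which encodes choline acetyltransferase, the enzyme that makes acetylcholine, lies at chr14:32408203-32465989 on the minus strand of GRCm38 in GENCODE M21. Slc18a3, which encodes the vesicular acetylcholine transporter, lies at chr14:32462438-32464850 on the same strand, wholly within an intron of Chat. Slc5a7, which encodes the high-affinity choline transporter that brings choline back into the terminal, lies at chr17:54273590-54299034 on the minus strand. The start regions of these 3 genes, which together define a cholinergic terminal, are shown because Chat and Slc5a7 had the same order over the 4 NAc libraries while their partner Slc18a3 could not be read. Each window runs from 250 bases before to 50 bases after the RefSeq start on GRCm38.p6, written 5′ to 3′ on the gene's strand (Chat chr14:32465860-32466159, Slc5a7 chr17:54298985-54299284 and Slc18a3 chr14:32464801-32465100, all on the minus strand). Capitals mark matches to the GC box GGGCGG on either strand.

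Chat promoter: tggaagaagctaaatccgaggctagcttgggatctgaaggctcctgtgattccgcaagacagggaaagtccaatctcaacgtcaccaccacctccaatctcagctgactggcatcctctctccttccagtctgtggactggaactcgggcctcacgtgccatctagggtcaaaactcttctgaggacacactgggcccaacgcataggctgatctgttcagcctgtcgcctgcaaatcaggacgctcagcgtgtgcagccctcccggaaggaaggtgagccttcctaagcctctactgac

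Slc5a7 promoter: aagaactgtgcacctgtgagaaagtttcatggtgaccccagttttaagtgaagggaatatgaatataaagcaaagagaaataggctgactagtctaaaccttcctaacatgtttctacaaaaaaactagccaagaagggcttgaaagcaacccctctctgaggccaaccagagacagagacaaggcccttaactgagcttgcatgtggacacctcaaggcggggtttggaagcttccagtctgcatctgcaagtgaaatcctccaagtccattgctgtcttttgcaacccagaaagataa

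Slc18a3 promoter: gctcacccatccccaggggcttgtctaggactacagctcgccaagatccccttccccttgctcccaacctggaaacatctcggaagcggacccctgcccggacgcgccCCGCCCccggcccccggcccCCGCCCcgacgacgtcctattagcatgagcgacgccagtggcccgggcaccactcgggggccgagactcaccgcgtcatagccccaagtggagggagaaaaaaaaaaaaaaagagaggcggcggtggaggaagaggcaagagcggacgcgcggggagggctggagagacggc

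Of the 9 genes, 8 had a window in the RefSeq table, Chrm1 being the exception. The 3 motifs searched, as exact letters on both strands, were the cAMP response element TGACGTCA, held by 1.79% of all 32851 windows of 300 bases, the homeodomain core TAATTA, held by 5.29%, and the GC box GGGCGG, held by 35.7%. The cAMP response element letters were in 0 of the 8 windows, and the homeodomain letters were in the Chrm5 window alone of the 8, once. That window, chr2:112480768-112481067 on the minus strand, sits at the start of the short GENCODE model of Chrm5. It lies inside the longer RefSeq span used for densities below (chr2:112478733-112536361), not at the start of that span. The GC box matched 4 times in the Ache window and 4 times in the Chrm4 window, 2 times in that of Slc18a3 and once in that of Chrm2. The Chat and Slc5a7 windows held 0 matches to each of these letters, and their GC contents were 55.7% and 44.7%, against 67.0% for Slc18a3. Such a match is a stretch of letters and not a measured site.

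Slc18a3 had 0 counts in all 8 libraries, which corresponds to a floor of 3 counts, or 0.0169 to 0.0271 CPM, depending on the library. This 0 followed the gene's position rather than any group: of 429 protein-coding symbols that lie inside introns of another tabulated gene, 426 (99.3%) were at 0 in all 8 libraries, against 1846 (12.3%) of the 15056 that overlap no other tabulated gene. The share was 98.6% of 139 symbols with a host on the same strand and 99.7% of the 290 with hosts on the other strand only. Slc18a3 is therefore listed at 0 and not read as absent, and how reads from the stretch shared by Chat and Slc18a3 were treated is not known.

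Chat had 8.12 and 2.33 CPM in the 2 NAc home-cage libraries and 7.24 and 2.76 CPM in the 2 cocaine libraries. In the mPFC it had 0.420 and 0.362 CPM in the home-cage libraries and 0.327 and 0.405 CPM after defeat. All 4 NAc libraries lay above all 4 mPFC libraries, and within the NAc the replicate 1 libraries lay far above those of replicate 2. The mPFC values rest on 40 to 57 counts per library.

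Slc5a7 had 10.52 and 2.48 CPM in the NAc home-cage libraries and 6.91 and 2.61 CPM in the cocaine libraries. The mPFC values were 0.825 and 0.796 CPM in home-cage mice and 0.829 and 0.726 CPM after defeat. It ordered the regions and the NAc replicates as Chat did, but not in the same proportion: the CPM ratio of Chat to Slc5a7 was 0.772 to 1.06 in the NAc libraries and 0.394 to 0.559 in the mPFC libraries. This ratio is set partly by the lengths of the genes, so that its change between regions, not its size, is what can be read.

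Ache, which encodes acetylcholinesterase, the enzyme that degrades acetylcholine at the synapse, lies at chr5:137287519-137294466 on the plus strand. It had 50.3 and 45.4 CPM in the NAc home-cage libraries, 49.98 and 40.7 CPM after cocaine, 48.3 and 52.9 CPM in the mPFC home-cage libraries, and 48.8 and 46.3 CPM after defeat. The 4 groups overlapped, and the group means ran from 45.4 ± 6.53 CPM after cocaine to 50.6 ± 3.29 CPM in mPFC home-cage mice (SD, n = 2). The gene overlaps the provisional model Gm42456, and without known strand settings reads in the overlap cannot be assigned. Unlike Chat and Slc5a7, the degrading enzyme was thus measured at a like level in tissue with many and with few Chat counts.

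Of the Gq-coupled receptors, Chrm1 (chr19:8663789-8683587, plus strand), the main muscarinic receptor gene of forebrain projection neurons, had 159.7 and 188.9 CPM in NAc home-cage libraries and 155 and 167 CPM after cocaine. The mPFC libraries had 219.9 and 238 CPM in home-cage mice and 228 and 217 CPM after defeat. Every mPFC library lay above every NAc library.

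Chrm3 (chr13:9875486-10360847, minus strand), a Gq-coupled receptor gene whose span of 485362 bases is the longest of the 9, had 117 and 177 CPM in the NAc home-cage libraries and 133 and 189 CPM after cocaine. In the mPFC it had 352 and 332 CPM in home-cage mice and 301 and 372 CPM after defeat. The regions did not overlap, and in both NAc groups replicate 2 was the higher library, the opposite of Chat.

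Chrm5 (chr2:112479171-112480769, minus strand), the Gq-coupled receptor gene best known from midbrain dopamine neurons, had 0.684 and 0.535 CPM in the NAc home-cage libraries and 0.678 and 0.484 CPM after cocaine. In the mPFC it had 0.0810 and 0.136 CPM in home-cage mice and 0.114 and 0.0640 CPM after defeat, from 9 to 15 counts per library. The regions did not overlap, while the groups within each region did.

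Of the Gi-coupled receptors, Chrm2 (chr6:36388084-36528414, plus strand), whose product is the common inhibitory autoreceptor of cholinergic terminals, had 19.1 and 38.4 CPM in the NAc home-cage libraries and 25.2 and 28.9 CPM after cocaine. Its mPFC levels were 39.0 and 35.1 CPM in home-cage mice and 37.0 and 39.4 CPM after defeat. The NAc home-cage libraries held the lowest value of the 8 and one within the mPFC range, so the regions overlapped in home-cage mice and were separate in the exposed mice.

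Chrm4 (chr2:91927249-91928688, plus strand), carried in the striatum mainly by projection neurons with the D1 dopamine receptor, had 42.8 and 22.7 CPM in the NAc home-cage libraries and 38.4 and 20.9 CPM after cocaine. In the mPFC it had 21.5 and 24.8 CPM in home-cage mice and 29.1 and 29.6 CPM after defeat. The 2 NAc replicate 1 libraries were the highest of the 8 and of the NAc replicate 2 libraries the home-cage one lay among the mPFC values and the cocaine one below them, while in the mPFC both defeat libraries lay above both home-cage libraries. The ratio of Chrm4 to Chrm2 was 2.24 and 1.52 in the replicate 1 NAc libraries (home cage and cocaine), 0.592 and 0.723 in those of replicate 2, and 0.551 to 0.787 in the mPFC.

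**Figure D1:**
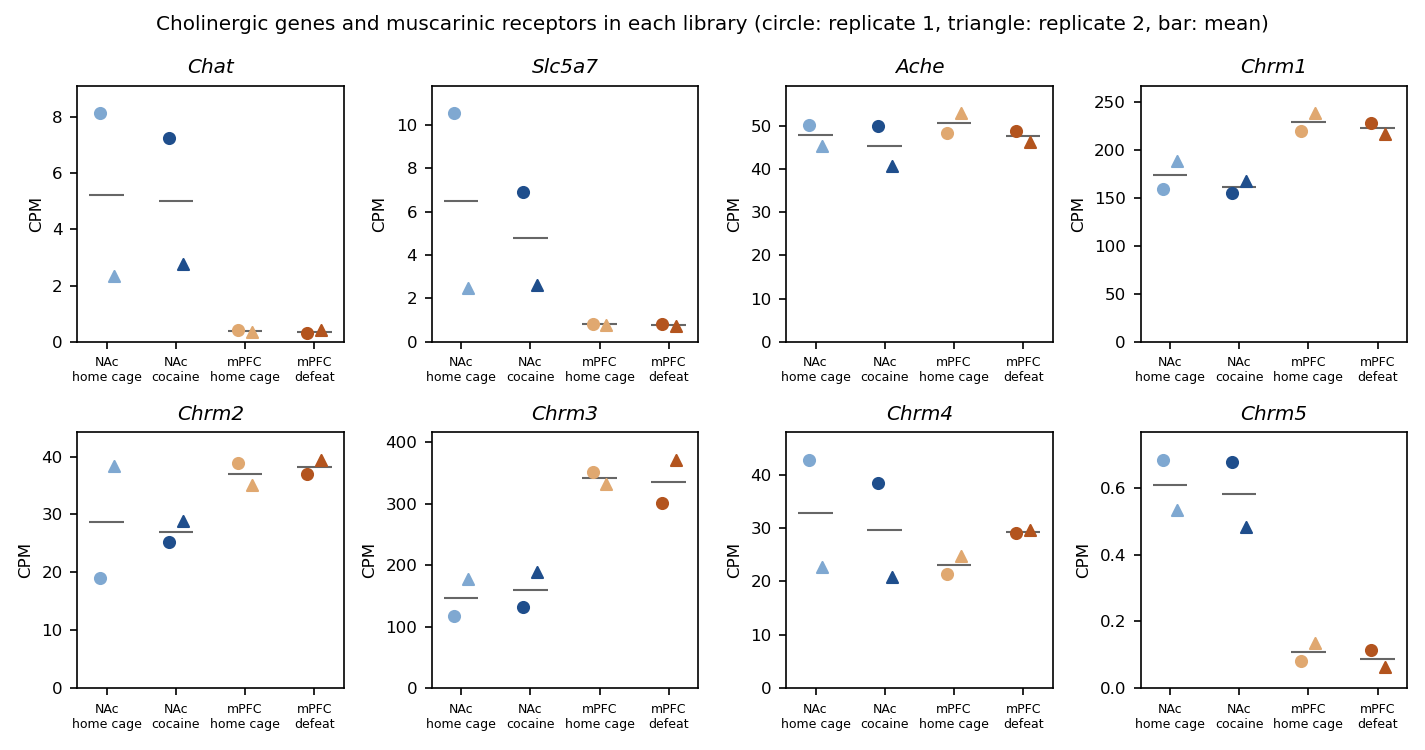
Levels (CPM, linear axis from 0) of the 8 genes with counts, one panel per gene, in the 2 libraries of each group (circle, replicate 1; triangle, replicate 2; bar, group mean). Chat and Slc5a7 are high in NAc with replicate 1 far above replicate 2, Chrm1 and Chrm3 are higher in all mPFC libraries, and Chrm4 after defeat (29.1 and 29.6 CPM) lies above its mPFC home-cage libraries (21.5 and 24.8 CPM).

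To compare levels between genes, densities per kilobase were used. Since nested genes were at 0, which counting over whole gene spans would give, densities were computed per kilobase of RefSeq gene span as well as per kilobase of GENCODE exon. Per kilobase of span in the NAc, Chrm1 had 7.91 to 9.64 reads per kilobase on the CPM scale (RPKM), Ache 6.55 to 8.09, Chrm4 2.73 to 5.59, Chrm3 0.241 to 0.388, Slc5a7 0.0974 to 0.413, Chrm2 0.135 to 0.273, Chat 0.0403 to 0.141 and Chrm5 0.00839 to 0.0119. In this order Chrm1 and Ache overlapped, Ache lay above Chrm4, Chrm4 lay above Chrm3, Chrm3, Slc5a7 and Chrm2 overlapped, Chat overlapped Slc5a7 and Chrm2, and Chrm5 lay below all others. In the mPFC Chrm1 (11.1 to 12.2 RPKM of span) was separate from Ache (7.45 to 8.51), and Chrm4 (2.81 to 3.87), Chrm3 (0.620 to 0.765) and Chrm2 (0.250 to 0.280) followed without overlap. Per kilobase of exon the order changed, with Chrm1 (23.9 to 29.1 RPKM), Chrm3 (18.7 to 30.2) and Chrm4 (14.5 to 29.7) overlapping at the top in the NAc. By mean density, Chrm1 above Chrm2 and Chrm3 above Chrm2 held in both regions on either length, whereas the places of Chrm3 and Ache, among others, depended on the length used. The RefSeq and GENCODE spans differ most for Chrm4 (7647 and 1440 bases) and Chrm5 (57629 and 1599 bases). Per kilobase of GENCODE span not shared with other genes, Chrm4 (14.5 to 29.7 RPKM) had the highest mean in the NAc. Chrm5 (0.303 to 0.428) then had a higher mean than Chrm3, Slc5a7, Chrm2 and Chat. Since the annotation used for counting is not known, the places of Chrm4 and Chrm5 are not settled.

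The 2 NAc libraries of a group were not alike in these genes. Chat was 3.49 times higher in replicate 1 than in replicate 2 in home-cage mice and 2.63 times higher after cocaine, and Slc5a7 was 4.24 and 2.65 times higher. Chrm4 was 1.88 and 1.84 times higher and Chrm5 1.28 and 1.40 times higher in replicate 1. Ache differed little, with ratios of 1.11 and 1.23. The other receptors went the other way, with ratios of replicate 1 to replicate 2 in home-cage and cocaine libraries of 0.846 and 0.926 for Chrm1, 0.496 and 0.874 for Chrm2, and 0.660 and 0.706 for Chrm3.

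Tissue markers split along the same numbers. All 15 striatal projection neuron markers were higher in replicate 1 in both groups, with a median ratio of 3.601 in home-cage mice and 2.79 after cocaine. Of the 12 cortical glutamatergic markers, 2 and 1 were higher in replicate 1, with median ratios of 0.501 and 0.654. Among 6 measured identity genes of forebrain cholinergic neurons, 5 were higher in replicate 1 in each group, among them Isl1 (5.70 and 2.86 times), Lhx8 (5.42 and 2.75 times), both transcription factor genes of the cholinergic lineage, and the transporter-like Slc10a4 (4.20 and 2.47 times). The neurotrophin receptor gene Ngfr was the exception, with ratios of 0.673 and 0.957. All 10 oligodendrocyte markers were also higher in replicate 1 in both groups, with median ratios of 1.77 and 1.11. All 6 astrocyte markers and all 5 measured microglia markers were lower in replicate 1 in both groups. Their median ratios were 0.950 and 0.880 for astrocytes and 0.880 and 0.878 for microglia. In the mPFC the median ratio of striatal markers between the 2 libraries of a group was 0.941 and 1.06. The part of this split in the values of the cholinergic and muscarinic genes was not tested.

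**Figure D2:**
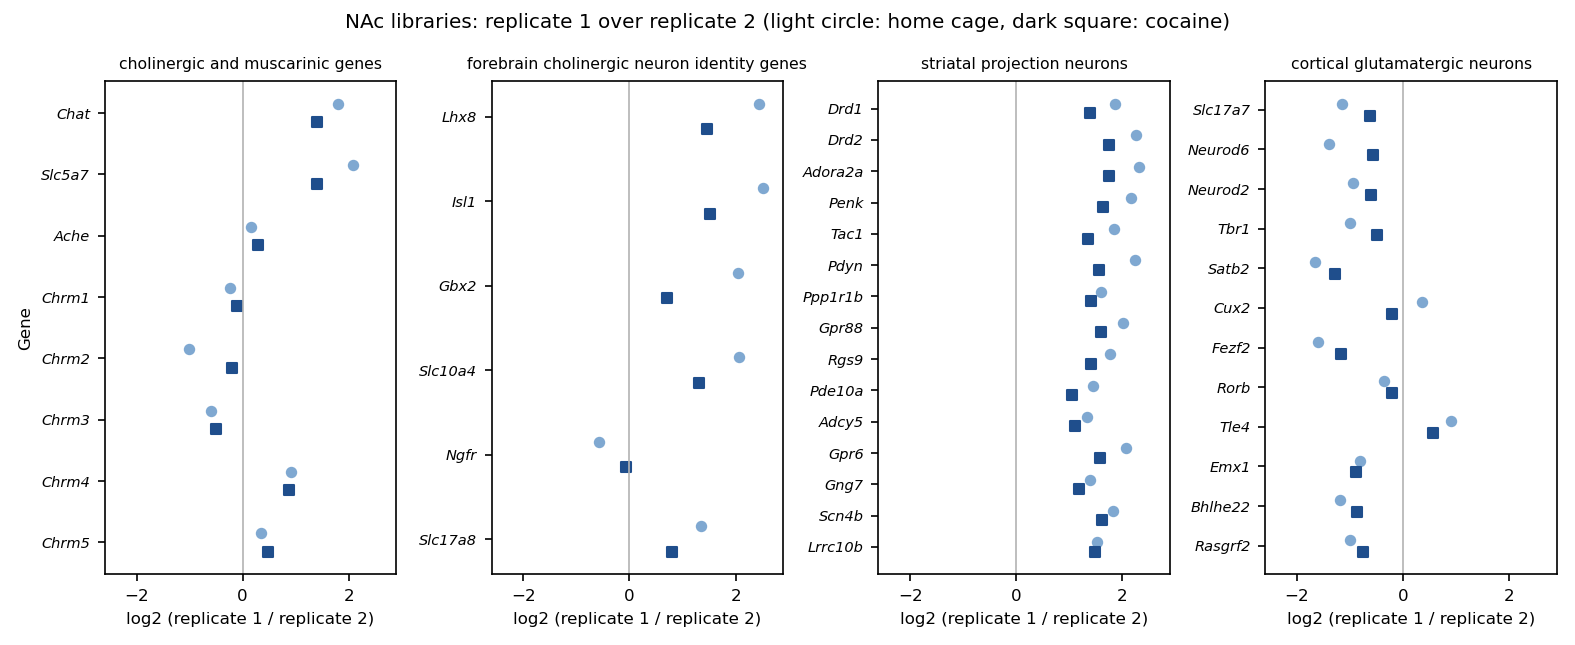
Log2 ratio of NAc replicate 1 to NAc replicate 2 for each gene of 4 lists, in home-cage mice (light circles) and after cocaine (dark squares), 0 meaning equal levels. Chat, Slc5a7 and Chrm4 lie right of 0 with all 15 striatal markers, and Chrm1, Chrm2 and Chrm3 lie left of 0 with most cortical markers.

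The first comparison asked whether these genes differed in the NAc 15 min after cocaine conditioning. None of the 8 measured genes passed an edgeR quasi-likelihood test at a Benjamini-Hochberg adjusted p under 0.05, where 0.0% of all 18418 tested genes passed, and 0 of the 8 reached an unadjusted p under 0.05 or passed in DESeq2. Chat averaged 4.996 ± 3.17 CPM after cocaine and 5.22 ± 4.10 CPM in home-cage mice (SD, n = 2), and Slc5a7 averaged 4.76 ± 3.04 and 6.50 ± 5.69 CPM. The cocaine and home-cage libraries overlapped in all 8 genes, while both cocaine libraries were above for 11.8% and below for 11.9% of all tested genes.

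How small a response could have been seen differed widely among them. The log2 fold change of Chat was -0.07 with a 95% interval from -2.07 to 1.94, and that of Slc5a7 was -0.45 with an interval from -2.65 to 1.75, so that changes of several fold in either direction lie within the spread. Ache (-0.08, from -0.43 to 0.28) and Chrm1 (-0.11, from -0.45 to 0.23) were bounded far more closely. Chrm2 had -0.08 (SE 0.351), Chrm3 0.13 (SE 0.277), Chrm4 -0.14 (SE 0.428) and Chrm5 -0.07 (SE 0.282). The fold changes were negative in 7 of the 8, with a median of -0.08 against -0.01 over all tested genes. These signs rest on single libraries: leaving out one NAc library at a time moved Chat between -0.92 and 1.10 and Chrm4 between -0.65 and 0.39.

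Set beside the library of the same number, the cocaine libraries showed no shared direction for the synthesis and uptake genes. The ratio of cocaine to home cage for Chat was 0.891 between the replicate 1 libraries and 1.18 between those of replicate 2, and for Slc5a7 it was 0.657 and 1.05. Chrm2 had 1.33 and 0.753. Ache (0.994 and 0.898), Chrm1 (0.970 and 0.886), Chrm4 (0.899 and 0.920) and Chrm5 (0.991 and 0.904) were lower after cocaine at both numbers, and Chrm3 (1.14 and 1.06) was higher at both. For Chrm3 and Chrm4 these differences were smaller than those between the replicate numbers.

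The second comparison asked the same of the mPFC 15 min after social defeat. Chrm4 rose from 23.2 ± 2.37 CPM in home-cage mice to 29.3 ± 0.303 CPM after defeat (SD, n = 2), a log2 fold change of 0.34 (SE 0.0830, 95% interval 0.18 to 0.51) or 1.27-fold, with an edgeR adjusted p of 0.0187. It was 1 of 8 measured genes that passed, where 0.704% of 18027 tested genes passed, 0.549% of them higher. DESeq2 gave 0.35 with an adjusted p of 0.0274. Both defeat libraries lay above both home-cage libraries, as they did for 16.4% of all tested genes, and 0 of the 8 genes had both below, as 17.8% did. The call was kept without mPFC home-cage replicate 2 (0.45, edgeR adjusted p = 0.000116) and lost without home-cage replicate 1 (0.25, 0.162), defeat replicate 1 (0.36, 0.213) or defeat replicate 2 (0.33, 0.492), and the edgeR fit of all 8 libraries, in which the NAc spread enters, gave 0.34 with an adjusted p of 1.0.

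Chrm4 has a close neighbour that moved with it. Mdk, which encodes the growth factor midkine, lies on the other strand with its 3′ end 1116 bases past the end of Chrm4 in GENCODE, and the RefSeq spans of the 2 genes overlap by 31 bases. Mdk had 2.79 and 3.22 CPM in the mPFC home-cage libraries and 4.44 and 4.37 CPM after defeat, a log2 fold change of 0.56 (SE 0.122, edgeR adjusted p = 0.00557); it was chosen after its values were seen. Its call was also lost in the fit of all 8 libraries (0.55) and without home-cage replicate 1 (0.46, edgeR adjusted p = 0.079), defeat replicate 1 (0.55, 0.0762) or defeat replicate 2 (0.57, 0.0922). Ambra1, the neighbour on the other side, 8399 bases before Chrm4, had 147.7 ± 1.73 CPM in home-cage mice and 141 ± 5.30 CPM after defeat (SD, n = 2; log2 -0.06, SE 0.0756). Without known strand settings, reads from the strip shared by Chrm4 and Mdk cannot be assigned to either, and the part of this overlap in the value of Chrm4 was not tested. Markers of oligodendrocytes also differed between these libraries, with 9 of 10 having a negative fold change (median log2 -0.19), 0 passing, and summed levels of 1281 to 1535 CPM in home-cage mice and 1144 to 1249 CPM after defeat; their part was not tested.

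The start region of Chrm4 is shown because this receptor gene was the member that passed after defeat. Its RefSeq window is chr2:91921939-91922238 on the plus strand of GRCm38.p6, upstream of the shorter GENCODE model given above, and capitals mark the 4 matches to GGGCGG on either strand, 2 of which overlap.

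Chrm4 promoter: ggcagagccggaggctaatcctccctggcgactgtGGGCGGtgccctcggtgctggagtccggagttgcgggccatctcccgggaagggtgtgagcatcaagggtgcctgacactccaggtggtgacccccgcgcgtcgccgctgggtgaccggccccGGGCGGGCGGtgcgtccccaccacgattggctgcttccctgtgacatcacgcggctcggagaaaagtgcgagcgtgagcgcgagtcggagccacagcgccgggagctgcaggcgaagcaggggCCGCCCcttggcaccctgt

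The 7 other measured genes did not pass after defeat. Their log2 fold changes were -0.10 (SE 0.276) for Chat, -0.06 (SE 0.204) for Slc5a7, -0.09 (SE 0.0781) for Ache, -0.04 (SE 0.0784) for Chrm1, 0.05 (SE 0.0801) for Chrm2, -0.02 (SE 0.0849) for Chrm3 and -0.26 (95% interval -1.26 to 0.74) for Chrm5. Chrm1, Chrm2, Chrm3 and Ache were measured closely enough that the standard error stayed under 0.09 on the log2 scale, whereas Chrm5 rested on 9 to 15 counts per library. The median over the 8 was -0.05, against a median of -0.0028 over all tested genes.

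Whether the cocaine and defeat responses differed was tested as a contrast over all 8 libraries. None of the 8 genes passed in edgeR or DESeq2, and none reached an unadjusted p under 0.05, where 0.0% of 18783 tested genes passed in edgeR. The difference for Chrm4 was -0.48 on the log2 scale (SE 0.483, 95% interval -1.62 to 0.65), so the Chrm4 responses to defeat in mPFC and to cocaine in NAc are not shown to differ. Region and kind of experience change together in this contrast, so it cannot show a response particular to either. The differences for the others ran from -0.39 for Slc5a7 to 0.19 for Chrm5.

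**Figure D3:**
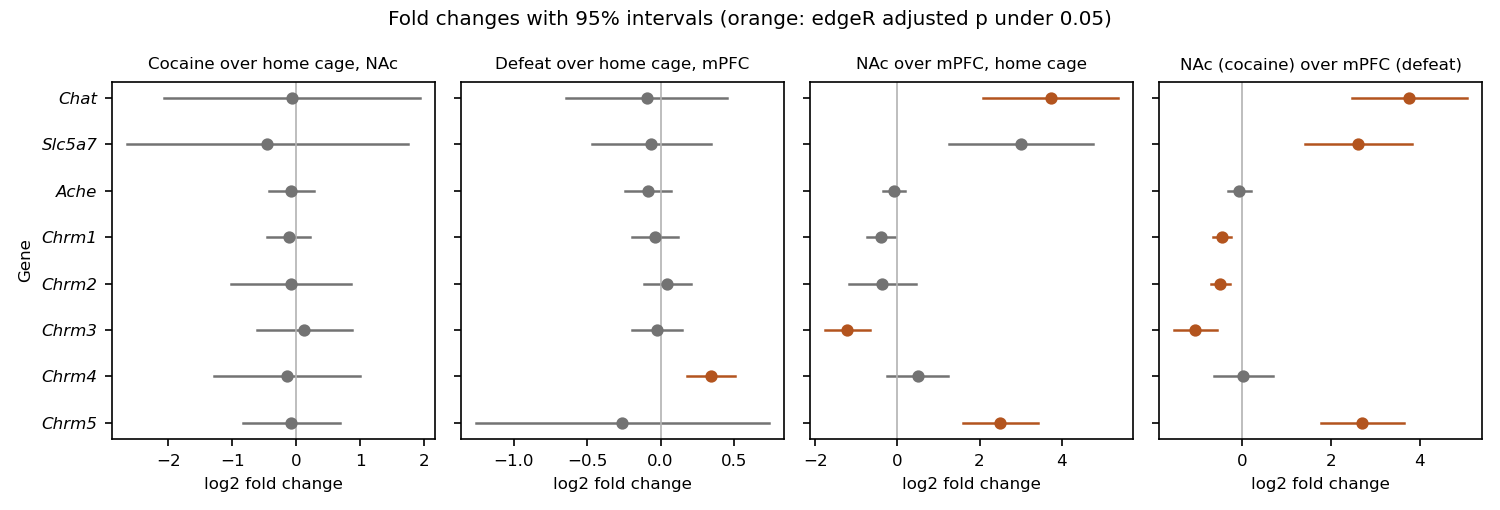
Log2 fold changes of the 8 measured genes with 95% intervals in 4 comparisons, from edgeR fits of 4 libraries each (orange, adjusted p under 0.05; grey, not passed). After cocaine all intervals include 0 and are widest for Chat and Slc5a7, after defeat Chrm4 alone of the 8 passes at 0.34, and between regions Chat and Chrm5 lie to the NAc side and Chrm3 to the mPFC side.

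The regional comparison in home-cage mice asked how the cholinergic make-up of the NAc differs from that of the mPFC with no experience in either. The NAc libraries belong to the cocaine experiment and the mPFC libraries to the defeat experiment, so region and experiment cannot be told apart. Chat was 13.3-fold higher in NAc (5.22 ± 4.10 against 0.391 ± 0.0410 CPM; SD, n = 2), with a log2 fold change of 3.73 (SE 0.652, edgeR adjusted p = 0.0267). Chrm5 was 5.67-fold higher (log2 2.50, SE 0.360, edgeR adjusted p = 0.0167) and Chrm3 was 2.33-fold lower (log2 -1.22, SE 0.216, edgeR adjusted p = 0.0277). These were 3 of 8 genes, where 12.4% of 18300 tested genes passed, 7.01% higher and 5.35% lower in NAc. Both NAc libraries lay above both mPFC libraries for Chat, Slc5a7 and Chrm5, as for 32.2% of all tested genes, and below for Chrm1 and Chrm3, as for 31.2%.

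Slc5a7 was 8.002-fold higher but missed the threshold (log2 3.0, SE 0.695, edgeR adjusted p = 0.0515), and passed in DESeq2 (adjusted p = 0.0117). Chrm1 (-0.40, SE 0.131), Chrm2 (-0.37, SE 0.323), Chrm4 (0.50, SE 0.295) and Ache (-0.08, SE 0.103) did not pass. Which NAc library entered set the size of these differences. With replicate 2 as the one NAc home-cage library, Chat had 2.57, Slc5a7 1.61, Chrm3 -0.95 and Chrm4 -0.02. With replicate 1 alone they had 4.36, 3.69, -1.55 and 0.88, and Chrm2 moved from 0.05 to -0.97. Without mPFC home-cage replicate 1 or replicate 2, 0 of all tested genes passed: Chat then had 3.84 and 3.63 (edgeR adjusted p = 0.236 and 0.237), Chrm3 -1.18 and -1.27 (0.239 and 0.216) and Chrm5 2.15 and 2.89 (0.202 and 0.155).

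The cocaine and defeat libraries gave the regional difference in 4 other libraries, where region and experience cannot be told apart. Chat was 13.6-fold higher in NAc (log2 3.77, SE 0.524, edgeR adjusted p = 0.00552), Slc5a7 6.13-fold higher (2.62, SE 0.481, adjusted p = 0.0119) and Chrm5 6.52-fold higher (2.7, SE 0.373, adjusted p = 0.00541). Chrm3 was 2.09-fold lower (log2 -1.06, SE 0.193, edgeR adjusted p = 0.0115), Chrm2 1.41-fold lower (-0.50, SE 0.0869, adjusted p = 0.0105) and Chrm1 1.38-fold lower (-0.46, SE 0.0815, adjusted p = 0.0105). These were 6 of 8 genes, where 36.3% of 18362 tested genes passed, 19.2% higher and 17.1% lower. The 6 were also those whose groups did not overlap, 3 above and 3 below, where 37.3% and 36.9% of all tested genes did so. Ache (-0.07, SE 0.108) and Chrm4 (0.02, SE 0.268) did not pass.

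Leaving out a library changed these calls too. Over all tested genes, fewer passed when a defeat library was left out and more when a cocaine library was. Effect sizes on the log2 scale are therefore given for these fits. Without defeat replicate 1 most of the 6 lost their calls, with Chrm5 at 3.16, Chat 3.62, Slc5a7 2.71, Chrm3 -1.21, Chrm2 -0.54 and Chrm1 -0.43. Without defeat replicate 2 the 6 lost their calls, with Chat at 3.93 and Slc5a7 at 2.52. Without cocaine replicate 1 Chrm4 had -0.49 and Ache -0.22, and without cocaine replicate 2 Chrm4 had 0.39, with the opposite sign. Chrm2 was not called in the edgeR fit of all 8 libraries (-0.50, adjusted p = 0.213).

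Most genes that mark forebrain cholinergic neurons followed Chat between the regions, while the ranges of Slc17a8 overlapped. Isl1 had 1.46 to 8.33 CPM in the NAc libraries and 0.00711 to 0.0380 CPM in the mPFC, Lhx8 0.470 to 2.55 and 0.0147 to 0.0228 CPM, and Slc10a4 1.59 to 6.68 and 0.0640 to 0.144 CPM. The floor of 3 counts was 0.0213 to 0.0271 CPM in the mPFC libraries. Lhx8 lay at or below it there, and Isl1 lay below it except for the value of 0.0380 CPM, from a defeat library. In home-cage mice 4 of 6 tested identity genes (of 7) were higher in NAc and 0 lower (Isl1, Lhx8, Slc10a4 and the neurotrophin receptor Ngfr), and in the exposed mice 5 of 6, where 7.01% and 19.2% of all tested genes were higher. None of them passed after cocaine or defeat or for the difference, Ngfr having the smallest p in each (log2 -0.42, SE 0.246; 0.23, SE 0.253; -0.67, SE 0.490). Summed over the list, the NAc had 8.05 to 25.1 CPM and the mPFC 3.56 to 3.88 CPM, of which Slc17a8, the vesicular glutamate transporter 3 gene that other neurons also use, gave 2.74 to 3.03 CPM in the mPFC. Without mPFC home-cage replicate 1 or 2, when 0 of all genes passed, the edgeR adjusted p was 0.217 and 0.209 for Isl1, 0.262 and 0.237 for Lhx8 and 0.217 and 0.214 for Slc10a4. In the exposed mice, leaving out each library in turn gave log2 fold changes of 6.51 to 8.97 for Isl1 and 4.17 to 5.64 for Slc10a4. For Lhx8 they were 4.79 to 6.24, and its call was lost without either defeat library.

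The nicotinic receptors, the ion channels opened by acetylcholine, were compared as the other receptor family (16 subunit genes, 14 tested; 12 tested after defeat). None passed after cocaine or after defeat, or for the difference between the responses. The smallest p was that of Chrna1, a muscle-type subunit, after cocaine (log2 0.69, SE 0.428) and for the difference (0.68, SE 0.441), and that of Chrnb3 after defeat (-0.29, SE 0.18). In home-cage mice 2 were higher and 3 lower in NAc, where 7.01% and 5.35% of all tested genes were. Chrna7, the subunit of the homomeric alpha7 receptor, had 70.5 to 83.8 CPM in NAc home-cage libraries and 34.3 to 37.4 CPM in mPFC, a 2.15-fold difference (edgeR adjusted p = 0.00968), and is named after its values were seen. Chrnb4 was 9.37-fold higher (0.313 ± 0.0130 against 0.0328 ± 0.00475 CPM, SD, n = 2, edgeR adjusted p = 0.0108). Its mPFC home-cage values, 0.0295 and 0.0362 CPM, lay near the floor of 3 counts (0.0221 and 0.0271 CPM in those libraries). After defeat it had 0.00760 and 0.0213 CPM, at or below the floors of 0.0228 and 0.0213 CPM. The size of its fold between regions is therefore poorly bounded. Chrna5, an accessory subunit of deep cortical layers, was 5.25-fold lower in NAc (0.866 ± 0.585 against 4.50 ± 0.491 CPM; edgeR adjusted p = 0.0368), Chrna1 4.21-fold lower (0.0193), and Chrna3, named after its values were seen, 2.93-fold lower (0.0441). Without mPFC home-cage replicate 1 or 2 the values were 3.07 and 3.36 for Chrnb4, -2.28 and -2.50 for Chrna5 and -2.09 and -2.06 for Chrna1 on the log2 scale, and none of them passed. In the exposed mice 4 were higher in NAc and 2 lower, where 19.2% and 17.1% of all tested genes were, and the calls with the largest fold changes were Chrnb4, Chrna5 and Chrna9. These 3 were not called without defeat replicate 1 (edgeR adjusted p = 0.108, 0.0905 and 0.135) or replicate 2 (0.0752, 0.0757 and 0.209). Chrna9 was also low, at 0.151 to 0.182 CPM after cocaine and 0.0427 to 0.0684 CPM after defeat, so the size of its fold is poorly bounded too. The subunits of the common brain receptor, Chrna4 (71.1 ± 20.9 against 76.3 ± 0.767 CPM) and Chrnb2 (41.6 ± 2.87 against 44.6 ± 0.919 CPM), did not pass in home-cage mice.

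**Figure D4:**
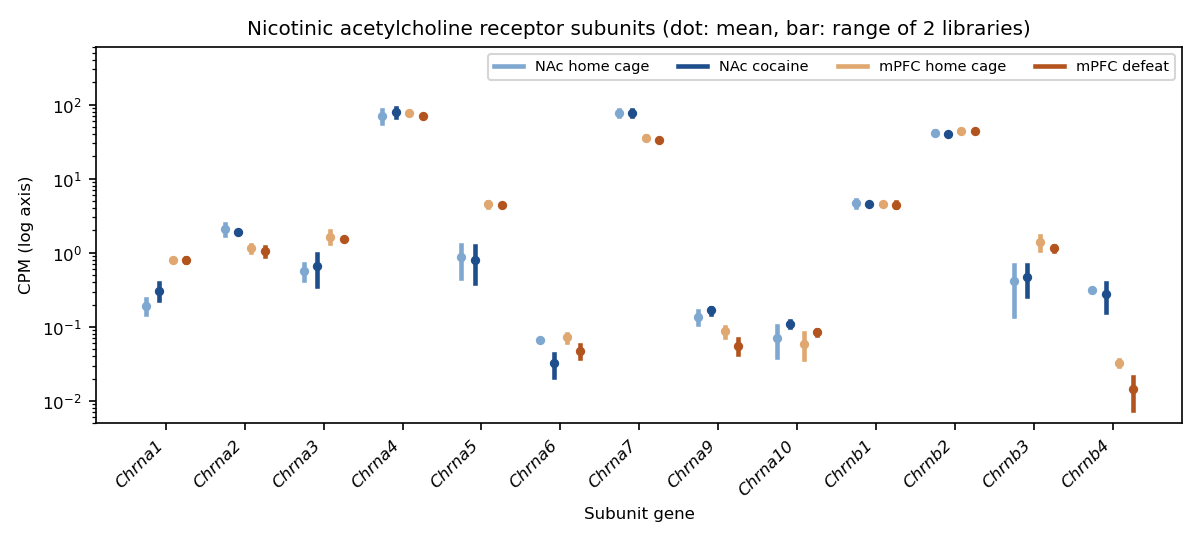
Levels (CPM, log axis) of the alpha and beta nicotinic receptor subunit genes in the 4 groups (dot, mean; bar, range of the 2 libraries). Chrna7 and Chrnb4 lie higher in the 2 NAc groups, Chrna5, Chrna1 and Chrna3 lie higher in the 2 mPFC groups, and Chrna4 and Chrnb2 lie at like levels in all 4. The mPFC values of Chrnb4 are near or below the floor of 3 counts.

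Other genes of acetylcholine and choline handling (10, all tested) showed 0 calls after cocaine, after defeat and for the difference, where Colq (log2 0.97, SE 0.474), Bche (0.23, SE 0.123) and Colq (1.13, SE 0.557) had the smallest p in turn. There were 2 higher and 2 lower in NAc in home-cage mice. Colq, the collagen tail that anchors acetylcholinesterase at the basal lamina of muscle, was 16.8-fold lower in NAc (0.109 ± 0.0503 against 1.81 ± 0.681 CPM; SD, n = 2; edgeR adjusted p = 0.00939). Prima1, the membrane anchor of acetylcholinesterase in brain, had 27.5 and 9.18 CPM in the NAc home-cage libraries and 4.69 and 4.81 CPM in those of mPFC, and passed in the exposed mice (4.23-fold higher in NAc, edgeR adjusted p = 0.00772; without defeat replicate 1 and 2, 0.0799 and 0.0504). In those mice Colq was 7.68-fold lower (edgeR adjusted p = 0.00152), so the partners that anchor the enzyme differed in opposite directions while Ache did not pass. Bche, the second cholinesterase, was 1.94-fold higher in NAc (edgeR adjusted p = 0.0171) and Lynx1, a membrane protein that dampens nicotinic receptors, 1.91-fold lower (0.0161). In the exposed mice 4 of the 10 were higher and 3 lower, where 36.3% of all tested genes passed, against 12.4% in home-cage mice. Without mPFC home-cage replicate 1 and 2 none of the home-cage calls held, with log2 values of -4.42 and -3.63 for Colq, 1.0 and 0.90 for Bche and -1.0 and -0.88 for Lynx1.

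Downstream of the muscarinic receptors, 14 effector genes were tested. None passed after cocaine. After defeat 1 of 14 rose and 0 fell, where 0.704% of all tested genes passed: Gnai3, a Gi alpha subunit gene, went from 23.2 ± 1.38 to 30.7 ± 0.346 CPM (SD, n = 2; log2 0.41, SE 0.0814, edgeR adjusted p = 0.00142). Its call was lost without defeat replicate 2 (0.40, edgeR adjusted p = 0.145) and in the fit of all 8 libraries (0.41, adjusted p = 0.46), and its difference between the responses was -0.33 (SE 0.0963), which did not pass. As with Chrm4, both defeat libraries lay above both home-cage libraries, and the other Gi and Go alpha genes of the list did not pass. Between regions in home-cage mice, where 12.4% of all tested genes passed, 0 were higher and 1 lower, Plcb4, a phospholipase C that Gq activates (2.21-fold lower in NAc, edgeR adjusted p = 0.0182; log2 -1.15 and -1.16, not passed, without mPFC home-cage replicate 1 or 2). In the exposed mice, where 36.3% of all tested genes passed and 17.1% were lower, 0 were higher and 4 lower, led by Kcnj9, a subunit of the potassium channels opened by Gi-coupled receptors (1.93-fold lower, edgeR adjusted p = 0.00647), Plcb4 (1.86-fold lower, 0.00775) and Gna11, a Gq-family alpha subunit gene (1.19-fold lower, 0.0406). Without defeat replicate 1 none of these 3 passed (0.067, 0.0658 and 0.276), nor without replicate 2 (0.0552, 0.0648 and 0.135).

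The genes with the most similar profile over the 8 libraries were listed for each member by the root mean square difference of centred log2 CPM among 13143 genes with a mean of at least 1 CPM, as a description. Nearest to Chat were Rgs9, a G protein regulator of striatal projection neurons (0.115), Prkch (0.140) and Pde1c (0.143), and its distance to Slc5a7 was 0.516. Nearest to Chrm4 were Phlda1 (0.126), Rnf17 (0.141) and St8sia3 (0.142), and nearest to Chrm3 were Trhde (0.0578), Slc16a10 (0.0789) and Kcnc2 (0.0816). Chrm1 had Nacc1 (0.0252), Slc41a3 (0.0306) and Map1a (0.0308), and Ache had Shank3 (0.0320), Egln1 (0.0322) and Ppp2r5b (0.0324), genes that, like them, varied little. Chrm2 had Tbata (0.0901), Cthrc1 (0.101) and Prr13 (0.108), and Chrm5 had Baiap3 (0.236), Doc2b (0.239) and Mafa (0.267), the loosest matches of the 7 genes examined. Among the members themselves Chrm1 and Chrm2 (0.215) and Ache and Chrm1 (0.227) lay closest, and Chat and Chrm3 (2.45) farthest apart. All 8 points share the region and replicate differences described above.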

How the data were processed

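Total RNA was sequenced in 8 libraries, 2 in each of 4 groups read from titles and treatment labels. Per the submitters' processing notes, the authors aligned reads with STAR 2.7.1a to mm10 and used featureCounts for counting. What the authors deposited are whole-number counts for each symbol, with NAc and mPFC in separate tables and no normalization. The annotation, the strand setting and the other counting options were not given in the sources used here.

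Counts were tested as deposited in R 4.3.3 with edgeR 4.0.16 (filterByExpr, TMM, estimateDisp, glmQLFit, glmQLFTest), each comparison on its own 4 libraries and the difference of responses on all 8, with Benjamini-Hochberg adjustment over all genes tested and a threshold of 0.05. Each SE is the size of the log2 fold change over the root of the quasi-likelihood F. Since 2 against 2 values reach at best a two-sided p of 0.33 in an exact permutation test, no single-gene test was added. Alternatives were DESeq2 1.42.0, RLE factors, no filter on low counts, one fit of all 8 libraries, a replicate block, each library left out in turn, unscaled totals for levels, and a prior count of 0.5 in place of 2 for profiles. The scripts were tested on simulated data. Densities per kilobase of gene span were added after the data were seen, since the zeros of nested genes did not look like exon counts; those per exon were planned.

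Coordinates come from GENCODE M21 and promoter windows from RefSeq on GRCm38.p6. All 9 members are named in each comparison; from 4 related lists, up to 3 genes that passed with the largest change are named, or else the one with the smallest p, and the 3 nearest profiles per member (Slc5a7 and Slc18a3 not listed). Some results that this rule would name are not reported here. The members and lists were chosen with earlier results of these data known. Totals were 111901829 to 179479978 counts per library; floors (3 counts) and counts cover counting error only, since reads are not independent molecules.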

Additional observations from a re-analysis of the deposited data

How the results depend on the processing

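Depth limits Chrm5 and Chat in the mPFC and the spread between the 2 NAc libraries limits Chat, Slc5a7, Chrm2 and Chrm4. Over all genes, cocaine passed 0 genes in edgeR (DESeq2 4; 0 to 0 with each library left out), and defeat passed 127 (one fit of all 8 libraries 5; left out 58 to 238). The home-cage regional comparison passed 2262 (DESeq2 3622, one fit 4654, left out 0 to 8048), that in exposed mice 6672 (left out 1133 to 9334), and the difference of responses 0 (DESeq2 2; left out 0 to 1). Of the members, 1 passed after defeat (one fit 0; left out 0 to 1), 3 between regions in home-cage mice (one fit 5; left out 0 to 7), and 6 in exposed mice (left out 0 to 8); 0 passed after cocaine or for the difference under any setting run. Unscaled totals moved no group mean by over 0.877%. The causes were not tested.

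Within the NAc, the numbers in the titles are shared by only 2 pairs of libraries, and nothing in the labels says that they mark a shared animal or day. The mPFC titles are numbered on through both groups, so the replicate numbers of the defeat group were assigned here. Deviations from the group means correlated across 18783 genes at 0.572 between cocaine and NAc home cage, -0.00961 between cocaine and mPFC home cage, and 0.0679 between the home-cage groups. With the number as a replicate block, cocaine passed 38 genes and none of the members (Chat 0.02 on the log2 scale, against -0.07), the home-cage regions 2174 genes, and the difference 3 genes. In the home-cage regional fit the block paired NAc with mPFC libraries by number, a link that no label gives. For the difference the block covered the NAc libraries only.

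Log2 fold changes that changed sign with 1 library left out ranged as follows. After cocaine, Chat ran from -0.92 to 1.1, Slc5a7 from -1.32 to 0.94, Ache from -0.23 to 0.07, Chrm1 from -0.23 to 0.01, Chrm2 from -0.5 to 0.51, Chrm3 from -0.14 to 0.46, Chrm4 from -0.65 to 0.39 and Chrm5 from -0.33 to 0.15. After defeat, Chat ran from -0.26 to 0.05, Slc5a7 from -0.16 to 0.03, Chrm1 from -0.09 to 0.02, Chrm2 from -0.03 to 0.13, Chrm3 from -0.18 to 0.12, Chrm5 from -0.72 to 0.12, Chrnb3 from -0.56 to 0.07 and Ngfr from -0.17 to 0.88. Between regions, Chrm2 ran from -0.97 to 0.05 and Chrm4 from -0.02 to 0.88 in home-cage mice, and Ache from -0.22 to 0.07 and Chrm4 from -0.49 to 0.39 in exposed mice. For the difference, Chat ran from -0.83 to 1.19, Slc5a7 from -1.26 to 0.99, Ache from -0.14 to 0.15 (-0.01 with no filter), Chrm1 from -0.2 to 0.05, Chrm2 from -0.56 to 0.46, Chrm3 from -0.13 to 0.48, Chrm4 from -0.99 to 0.03 and Chrm5 from -0.2 to 0.66.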
